A study of Sus scrofa with 35 samples.

Results

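The genes described here belong to the machinery by which skeletal muscle loses protein: the atrophy ligases FBXO32 and TRIM63, the transcription factors FOXO1 and FOXO3, the growth inhibitor MSTN (myostatin), the growth-arrest genes GADD45A and CDKN1A, and the polyubiquitin gene UBB. They were found on the array by name: 26 of 60305 non-control probes carried 1 of these 8 gene names, and each gene had between 2 and 5 probes. They are 8 of the 9670 genes with a symbol that could be tested. Total RNA had been taken from longissimus dorsi, a muscle of the back. The 35 growing pigs were castrated males that entered the climatic room at 11 weeks of age. Thermo-neutral (TN) pigs were slaughtered at 24 °C before the room was warmed, and heat-stressed (HS) pigs after warming. The pigs were Large White (6 TN, 6 HS), a lean commercial breed, Creole (6 TN, 6 HS), a local breed of Guadeloupe, or F1, the cross of both (6 TN, 5 HS). The sample labels give 30 °C for the HS pigs, whereas the protocol and the methods of the study give 32 °C for 4 or 5 days. Each breed came from 3 blocks of 4 littermates and was kept in its own pens, so that litter and pen also differ between breeds. TN and HS pigs were kept in different pens and slaughtered on different days, so that pen and day cannot be told apart from temperature. All had free access to feed, but the study reports a lower feed intake in the heat. Lower intake can therefore not be told apart from temperature either.

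In muscle, a chain of ubiquitin marks a protein for the proteasome, and the choice of protein is made by E3 ligases. FBXO32 (atrogin-1 or MAFbx) and TRIM63 (MuRF1) are the muscle E3 ligases best known for rising in fasting, disuse and illness. FOXO1 and FOXO3 switch on both ligases and autophagy genes when insulin and AKT signalling falls, since AKT otherwise holds FOXO proteins outside the nucleus. MSTN, a secreted ligand of the TGF-beta family, acts through activin receptors and SMAD proteins to limit muscle size.

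Each probe is a 60-base oligonucleotide, and its letters decide whether probes of a gene are separate measurements. The FBXO32 probes below share no run of more than 7 bases with any other FBXO32 probe, so that their values are separate readings. The FOXO1 probes A_72_P441344 and A_72_P280234 both passed the temperature test. For FOXO3, the probe shown is the only FOXO3 probe that passed it. In the UBB pair, capitals mark the run of 31 bases common to both probes, so that they are not separate readings. The base after that run differs between them, and the bases after it match again up to the end of A_72_P529525. Whether both read the same stretch of RNA cannot be told. The TRIM63 probe is the dimmer of 2.
FBXO32 A_72_P110111: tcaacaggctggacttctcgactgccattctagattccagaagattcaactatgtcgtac
FBXO32 A_72_P602453: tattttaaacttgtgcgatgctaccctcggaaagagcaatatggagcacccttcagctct
FBXO32 O13679: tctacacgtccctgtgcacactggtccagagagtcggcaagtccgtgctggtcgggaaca
TRIM63 O8805: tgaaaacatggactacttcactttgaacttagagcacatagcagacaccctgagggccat
FOXO1 A_72_P441344: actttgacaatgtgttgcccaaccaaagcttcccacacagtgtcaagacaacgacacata
FOXO1 A_72_P280234: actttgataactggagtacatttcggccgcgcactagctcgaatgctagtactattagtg
FOXO3 A_72_P440351: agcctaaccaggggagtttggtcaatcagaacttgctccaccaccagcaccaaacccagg
UBB A_72_P326078: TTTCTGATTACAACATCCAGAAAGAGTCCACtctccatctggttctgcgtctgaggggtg
UBB A_72_P529525: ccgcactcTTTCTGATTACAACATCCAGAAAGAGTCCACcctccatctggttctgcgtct

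Of the 26 probes, 25 were bright enough to be tested, and the probe left out was FOXO1 O2940. A probe was tested where 75% or more of the arrays in any of the 6 groups measured it well above background. Each gene is given by its brightest tested probe, which was well above background on all 35 arrays for all 8 genes, and values are quantile-normalised log2 intensities. A difference of 1 on this scale is a 2-fold difference, and a level is comparable between arrays for 1 probe but not between probes. Across arrays, 58.4% to 75.9% of all probes were well above background. The RNA was that of muscle, since all 9 fibre markers were well above background on every array. In a bulk sample, fewer cells of a type and less RNA per cell cannot be told apart.

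**Figure D1:**
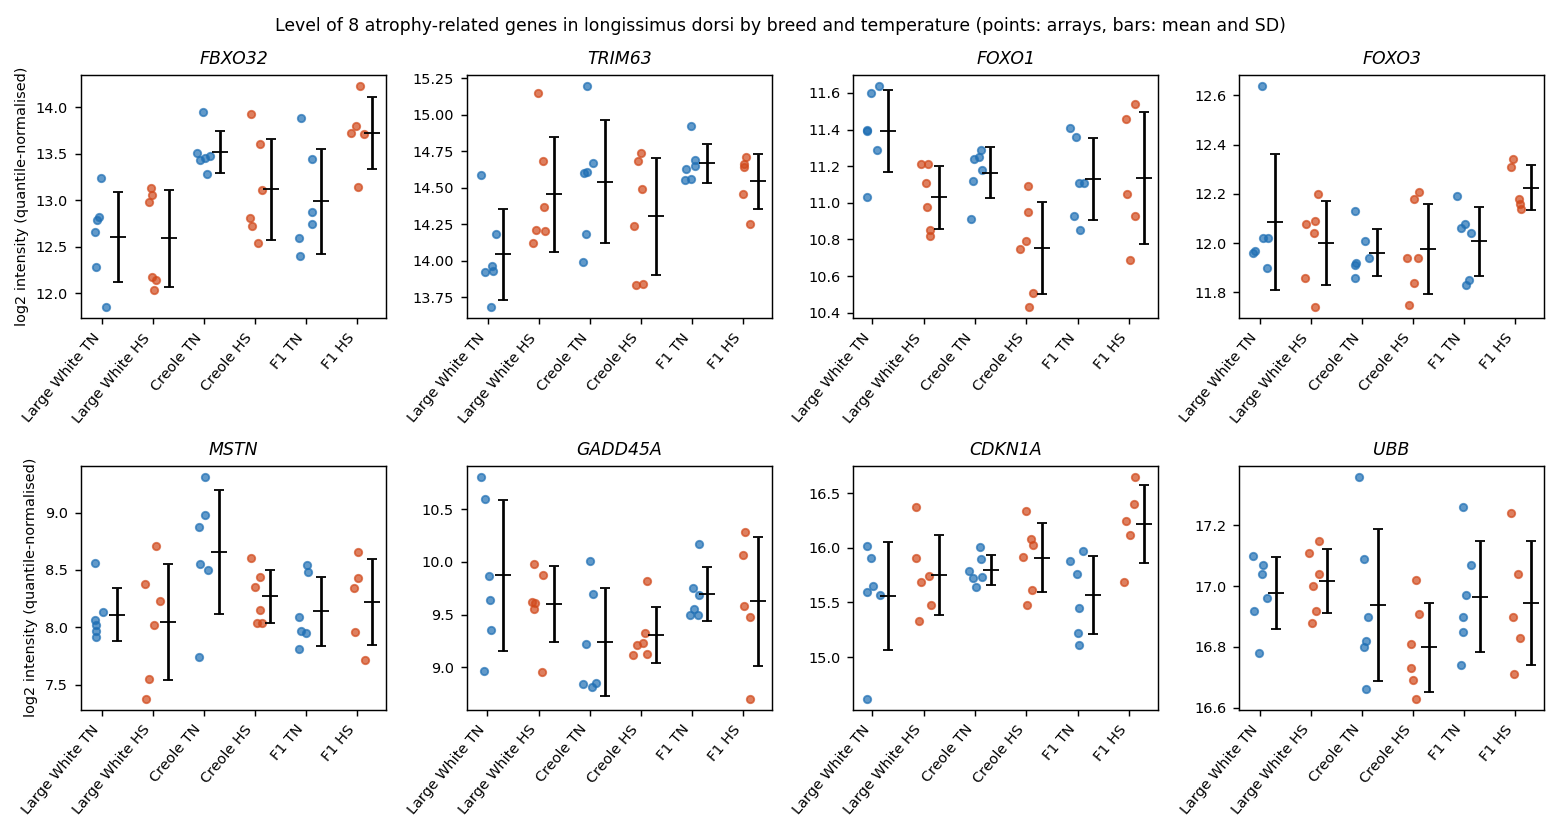
Level of each gene on its brightest probe (vertical axes, quantile-normalised log2 intensity) in the 6 breed-by-temperature groups. Points are arrays, blue for TN and red for HS, and bars are the mean and SD. FBXO32 lies lowest in the Large White groups (means 12.61 and 12.59) and FOXO1 lowest in Creole HS (10.76).

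Temperature was compared over all breeds, with breed as a second additive term. FOXO1 was the only gene of the 8 whose brightest probe passed the test (1 of 8, limma, adjusted p below 0.05), and it was lower in HS pigs. On single probes, 4 of 25 passed, a share of 16%, against 16.0% of all 41517 probes tested. By gene symbol, 18.2% of 9670 genes passed on their brightest probe. The share of these genes that passed was therefore no larger than that of the array as a whole. The median change over the 8 genes was -0.01 on the log2 scale and that over all probes -0.02.

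The ligases come first. FBXO32, whose protein brings targets such as MyoD and eIF3f to an SCF ubiquitin ligase, ranged from 11.85 to 14.23 over the 35 arrays, a 5.20-fold range and the widest of the 8 genes. In TN pigs its lowest, median and highest levels were 11.85, 13.05 and 13.95, and in HS pigs they were 12.04, 13.11 and 14.23. Levels of HS pigs lay within or close to the TN range, with 1 of 17 HS arrays above all TN arrays and none below. The HS minus TN difference was 0.09 (SE 0.17, limma adjusted p = 0.773), with a 95% interval from 0.838-fold to 1.34-fold. With array brightness as a covariate it was 0.31 (limma adjusted p = 0.278) and with spike-in scaling 0.18 (limma adjusted p = 0.471). The other 4 FBXO32 probes gave differences between -0.01 and 0.05.

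TRIM63, a RING-finger ligase of the sarcomere that targets myosin heavy chain, had a lowest, median and highest level of 13.68, 14.58 and 15.20 in TN pigs and of 13.83, 14.46 and 15.15 in HS pigs. Both groups covered nearly the same range. The difference was 0.02 (SE 0.12, limma adjusted p = 0.927), with a 95% interval from 0.861-fold to 1.20-fold. Its sign turned to -0.08 when arrays were scaled to their 75th percentile, so that no direction can be given.

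FOXO1 was lower in HS pigs. Its TN levels ran from 10.85 through a median of 11.24 to 11.64 (mean 11.23 ± 0.22, SD, n = 18), and its HS levels from 10.43 through 10.95 to 11.54 (mean 10.96 ± 0.30, SD, n = 17). The groups overlapped, with 15 of 17 HS arrays below the TN mean of their breed and 6 of 17 below every TN array. The difference was -0.26 (SE 0.08, limma adjusted p = 0.0261), a level 0.833-fold that of TN pigs with a 95% interval from 0.743-fold to 0.935-fold.

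The FOXO1 probes did not all give the same answer. A_72_P280234 fell by 0.26 (SE 0.08, limma adjusted p = 0.0299) and A_72_P107426 fell by 0.25 (SE 0.08, limma adjusted p = 0.0241). A_72_P452642 differed by -0.07 (SE 0.08, limma adjusted p = 0.630), and its levels correlated with those of the other 3 at r between 0.385 and 0.585, against 0.797 to 0.908 among those 3. On the 4 slides that held 4 TN and 4 HS arrays, the difference on the brightest probe was negative on 3, at -0.48, -0.31 and -0.35, and was 0.13 on slide 2. The call was kept without any single array (limma adjusted p from 0.00816 to 0.0463). It was lost with median scaling (-0.20, adjusted p = 0.0576), with scaling to the spike-in controls (-0.12, adjusted p = 0.306) and with array brightness as a covariate (-0.16, adjusted p = 0.272), and HS arrays were brighter (log2 of the 75th percentile 9.24 ± 0.24, SD, n = 17) than TN arrays (9.05 ± 0.17, SD, n = 18). The part of array brightness in the FOXO1 difference was not tested beyond that covariate.

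FOXO3 has 3 probes that varied with little relation to each other, with r between 0.00489 and 0.218 over the 35 arrays. On the brightest probe, TN levels had a lowest, median and highest value of 11.83, 11.99 and 12.64, and HS levels of 11.74, 12.09 and 12.34. The groups overlapped almost fully there, and the difference was 0.04 (SE 0.06, limma adjusted p = 0.666). On A_72_P440351, TN levels ran from 7.53 through 7.88 to 8.24 and HS levels from 7.31 through 7.64 to 8.03. That probe fell by 0.19 (SE 0.06, limma adjusted p = 0.0384), with 15 of 17 HS arrays below the TN mean of their breed. The third probe, O5860, gave -0.09 (SE 0.06, limma adjusted p = 0.292). No single FOXO3 level can be given from probes that disagree in this way, and the mean of the 3 probes differed by -0.08 (limma adjusted p = 0.219). Scaling to the spike-in controls put the brightest probe higher in HS pigs (0.17, limma adjusted p = 0.0276).

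**Figure D2:**
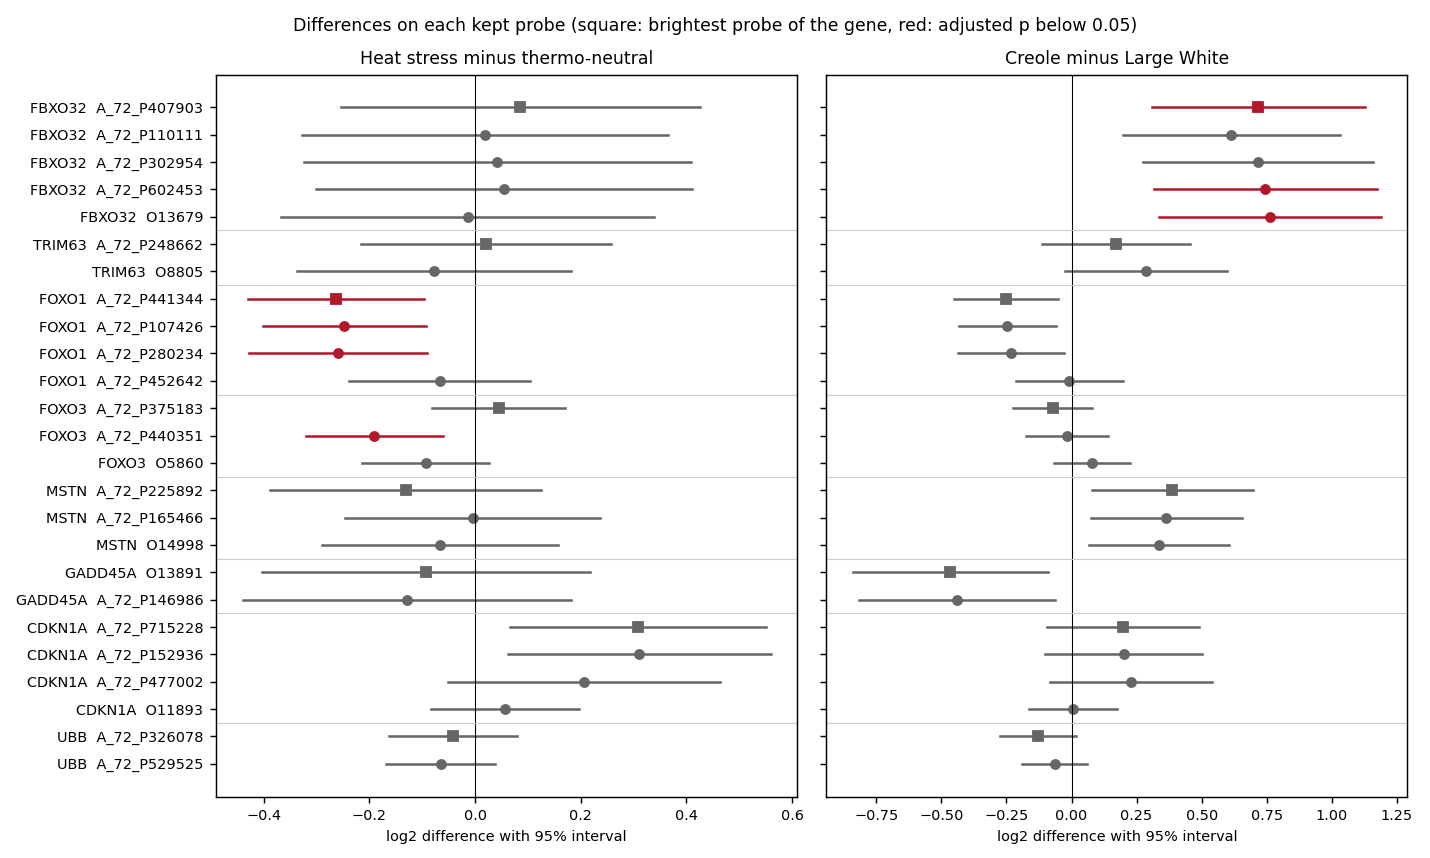
Difference on each of the 25 tested probes with its 95% interval, as log2 differences for HS minus TN (left) and Creole minus Large White (right). Rows are probes grouped by gene, squares mark the brightest probe of a gene, and red marks an adjusted p below 0.05. On the left, 3 FOXO1 probes and 1 FOXO3 probe lie below 0 in red, and on the right 3 FBXO32 probes lie above 0 in red.

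MSTN had TN levels of 7.74, 8.11 and 9.31 (lowest, median and highest) and HS levels of 7.38, 8.23 and 8.71. The difference was -0.13 (SE 0.13, limma adjusted p = 0.513), with a 95% interval from 0.764-fold to 1.09-fold, and it was 0.0036 with spike-in scaling. The other 2 probes, which share 57 bases with each other, gave -0.07 and -0.0045.

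CDKN1A, which encodes the cell-cycle inhibitor p21, had the largest difference of the 8 genes under the reported normalisation, though not with 75th percentile scaling, where FOXO1 was at -0.28 and CDKN1A at 0.19. Its TN levels ran from 14.62 through a median of 15.72 to 16.02 (mean 15.64 ± 0.36, SD, n = 18), and its HS levels from 15.33 through 15.92 to 16.65 (mean 15.95 ± 0.38, SD, n = 17). The groups overlapped, but 8 of 17 HS arrays lay above every TN array and 13 of 17 lay above the TN mean of their breed. The difference of 0.31 (SE 0.12, limma adjusted p = 0.0707) did not pass the test, with a 95% interval from 1.05-fold to 1.47-fold. The probe A_72_P152936, which overlaps the brightest probe by 54 bases, gave 0.31, while A_72_P477002 gave 0.21 and O11893 gave 0.06. A probe with no gene symbol in the files that shares at least 30 bases with the brightest CDKN1A probe gave 0.33 (SE 0.12, limma adjusted p = 0.0532). CDKN1A passed with spike-in scaling (0.35, adjusted p = 0.0440), with array weights (0.36, adjusted p = 0.0187), without replicate 4 of Creole HS (0.34, adjusted p = 0.0456) or replicate 4 of Large White TN (0.34, adjusted p = 0.0467). It was smaller with 75th percentile scaling (0.19, adjusted p = 0.314) and for the mean of its probes (0.22, adjusted p = 0.142), and was 0.32 with array brightness as a covariate (adjusted p = 0.163). Over the slides with 8 arrays the difference ran from -0.0016 to 0.51.

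GADD45A, a stress-induced growth-arrest gene that also rises in denervated muscle, had TN levels of 8.81, 9.60 and 10.81 (lowest, median and highest) and HS levels of 8.70, 9.55 and 10.29. The difference was -0.09 (SE 0.15, limma adjusted p = 0.728), and it was 0.06 with spike-in scaling. Its probes share 57 bases and correlated at r = 0.980, so that they count as a single reading.

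UBB, which encodes tandem ubiquitin repeats, varied least over the arrays, from 16.63 to 17.36, a 1.65-fold range. The TN levels were 16.66, 16.94 and 17.36 (lowest, median and highest), and the HS levels 16.63, 16.91 and 17.24. The difference was -0.04 (SE 0.06, limma adjusted p = 0.683), with a 95% interval from 0.893-fold to 1.06-fold, and it was 0.00431 with spike-in scaling and 0.01 with array weights. The ubiquitin repeats are alike in sequence, so that RNA of other ubiquitin genes may bind to these probes.

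Breed was compared in the same model. FBXO32 was higher in Creole than in Large White pigs and was the only gene of the 8 to pass (1 of 8, against 3.64% of all probes and 3.72% of genes by symbol). Over both temperatures, Large White levels ran from 11.85 through a median of 12.73 to 13.24, and Creole levels from 12.54 through 13.44 to 13.95. The groups overlapped, and 11 of the 12 Creole pigs exceeded the mean that Large White pigs had at the same temperature. The difference was 0.72 (SE 0.20, limma adjusted p = 0.0376), or 1.65-fold with a 95% interval from 1.24-fold to 2.19-fold. All 5 FBXO32 probes gave differences between 0.61 and 0.76 and correlated with each other at r of 0.965 to 0.992, and 3 of 5 passed.

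The call on FBXO32 was close to the threshold. It was lost with slide as a fixed block (0.65, adjusted p = 0.0649), with spike-in scaling (0.64, adjusted p = 0.0509) and with no filter on dim probes (adjusted p = 0.0503). It was also lost without any 1 of 13 arrays (0.65 to 0.72, adjusted p from 0.0517 to 0.0723), namely Creole TN replicates 1, 2, 3, 4, 5 and 6, Creole HS replicates 2 and 3, Large White TN replicates 2 and 6, and Large White HS replicates 4, 5 and 6. The sign was the same under all these settings, and Creole minus Large White was positive on each of the 4 slides with 8 arrays, from 0.13 to 1.48. Array brightness was alike in both breeds (9.15 ± 0.23 in Creole and 9.18 ± 0.27 in Large White, SD, n = 12 each).

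Over both temperatures together, F1 pigs stood near Creole pigs in FBXO32, but at each temperature their means lay apart in opposite directions. At TN the F1 mean was 12.99 against 13.52 in Creole pigs, and at HS it was 13.72 against 13.12. Neither gap was tested. F1 minus Large White was 0.73 (SE 0.21, limma adjusted p = 0.113) and F1 minus Creole 0.01 (SE 0.21, 95% interval -0.41 to 0.43). In neither comparison did any of the 8 genes pass by limma (0 of 8 each by limma, with 2 and 1 genes at an unadjusted p below 0.05), where 0.525% and 0.477% of all probes passed. Unadjusted limma p-values lay below 0.05 for 4371 and 3685 of all 41517 probes. With array weights, FBXO32 and TRIM63 passed in F1 minus Large White, where the TRIM63 difference was 0.36 without weights (SE 0.14, limma adjusted p = 0.327). At TN, TRIM63 levels ran from 14.55 to 14.92 in F1 and from 13.68 to 14.59 in Large White pigs, a difference of 0.62 (SE 0.19, limma adjusted p = 0.248).

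At a fixed temperature, 0 of 4 FBXO32 differences passed on the brightest probe. At TN, the 6 Creole pigs had FBXO32 levels from 13.28 to 13.95 and the 6 Large White pigs from 11.85 to 13.24. This difference was 0.91 (SE 0.26, limma adjusted p = 0.0818), and the probe O13679 passed (1.04, SE 0.27, limma adjusted p = 0.0457) where 0.997% of all probes did. At HS, the 5 F1 pigs had levels of 13.14, 13.71, 13.72, 13.80 and 14.23, against a Large White range of 12.04 to 13.13. This difference was 1.13 (SE 0.27, limma adjusted p = 0.219), in a comparison where 0 of 41517 probes passed. How often the ranges of such groups lie apart over all probes was not counted, so these ranges are a description only. Creole minus Large White at HS was 0.53 (SE 0.26, limma adjusted p = 0.699), where 0.296% of all probes passed, and F1 minus Large White at TN 0.38 (SE 0.26, limma adjusted p = 0.75), where 0.0337% of all probes passed.

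The other genes did not pass between breeds. GADD45A was 9.27 ± 0.39 in Creole and 9.74 ± 0.56 in Large White pigs (SD, n = 12 each), a difference of -0.47 (SE 0.18, limma adjusted p = 0.179), with 10 of 12 Creole arrays below the Large White mean. MSTN was 8.46 ± 0.44 in Creole and 8.08 ± 0.38 in Large White pigs (SD, n = 12 each), a difference of 0.39 (SE 0.15, limma adjusted p = 0.175), and its other probes gave 0.36 and 0.34. FOXO1 differed by -0.25 (SE 0.10, limma adjusted p = 0.176), and it passed with median scaling (-0.30, adjusted p = 0.0403) and with spike-in scaling (-0.33, adjusted p = 0.0329). Differences of TRIM63, CDKN1A, UBB and FOXO3 lay between -0.13 and 0.20.

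Within a breed, 0 of 8 genes passed the HS minus TN comparison by limma in Creole, F1 or Large White pigs, with 1, 2 and 2 genes at an unadjusted p below 0.05. Of all probes, 1.91% passed in Creole and 0.00482% in each of the other two. Unadjusted limma p-values lay below 0.05 for 8946, 3444 and 6893 of the 41517 probes in Creole, F1 and Large White pigs. FOXO1 differed by -0.41 in Creole (SE 0.13, limma adjusted p = 0.0828), by -0.36 in Large White (SE 0.13, limma adjusted p = 0.172) and by 0.01 in F1 pigs (SE 0.14, limma adjusted p = 0.997), and it passed in Creole pigs when replicate 2 of Creole HS was left out. Creole HS pigs had the lowest FOXO1 levels, 10.43 to 11.09 against 10.91 to 11.29 in Creole TN pigs. The F1 HS pigs had levels of 10.69, 10.93, 11.05, 11.46 and 11.54, which covered the F1 TN range of 10.85 to 11.41.

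FBXO32 differed by -0.40 in Creole (SE 0.26, limma adjusted p = 0.380), by -0.02 in Large White (SE 0.26, limma adjusted p = 0.979) and by 0.73 in F1 pigs (SE 0.27, limma adjusted p = 0.387). The F1 TN pigs had levels from 12.40 through 12.80 to 13.88, so that 4 of the 5 F1 HS pigs still lay within the F1 TN range. CDKN1A differed by 0.65 in F1 pigs (SE 0.21, limma adjusted p = 0.279), from a TN range of 15.11 to 15.97 to HS levels of 15.69, 16.12, 16.25, 16.40 and 16.65. It differed by 0.11 in Creole and by 0.19 in Large White pigs. TRIM63 differed by 0.41 in Large White (SE 0.19, limma adjusted p = 0.258), by -0.24 in Creole and by -0.12 in F1 pigs.

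Whether the temperature difference depended on breed was tested directly by the interaction. By limma's moderated F-test 0 of 8 genes passed, with 2 of 8 at an unadjusted p below 0.05. These were FBXO32 (unadjusted p of 0.0168) and TRIM63 (unadjusted p of 0.0431), both with a limma adjusted p of 0.963 over 41517 probes. Of all 41517 probes, 0 passed and 1593 had an unadjusted p below 0.05. The breeds were therefore not shown to differ in the response of any of these genes.

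The order of the 6 group means was set mostly by differences smaller than the spread. For FBXO32 the means fell from 13.72 in F1 HS through 13.52 in Creole TN, 13.12 in Creole HS, 12.99 in F1 TN and 12.61 in Large White TN to 12.59 in Large White HS, and every pair of neighbours differed by less than the larger of their SDs. For FOXO1 the means fell from 11.39 in Large White TN through 11.16 in Creole TN, 11.14 in F1 HS, 11.13 in F1 TN and 11.03 in Large White HS to 10.76 in Creole HS. There, only the first and the last steps, 0.23 and 0.27, exceeded the larger SD of the pair. In the other 6 genes no neighbouring step exceeded it, and the highest and lowest group means lay between 1.16-fold (UBB) and 1.58-fold (CDKN1A) apart.

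**Figure D3:**
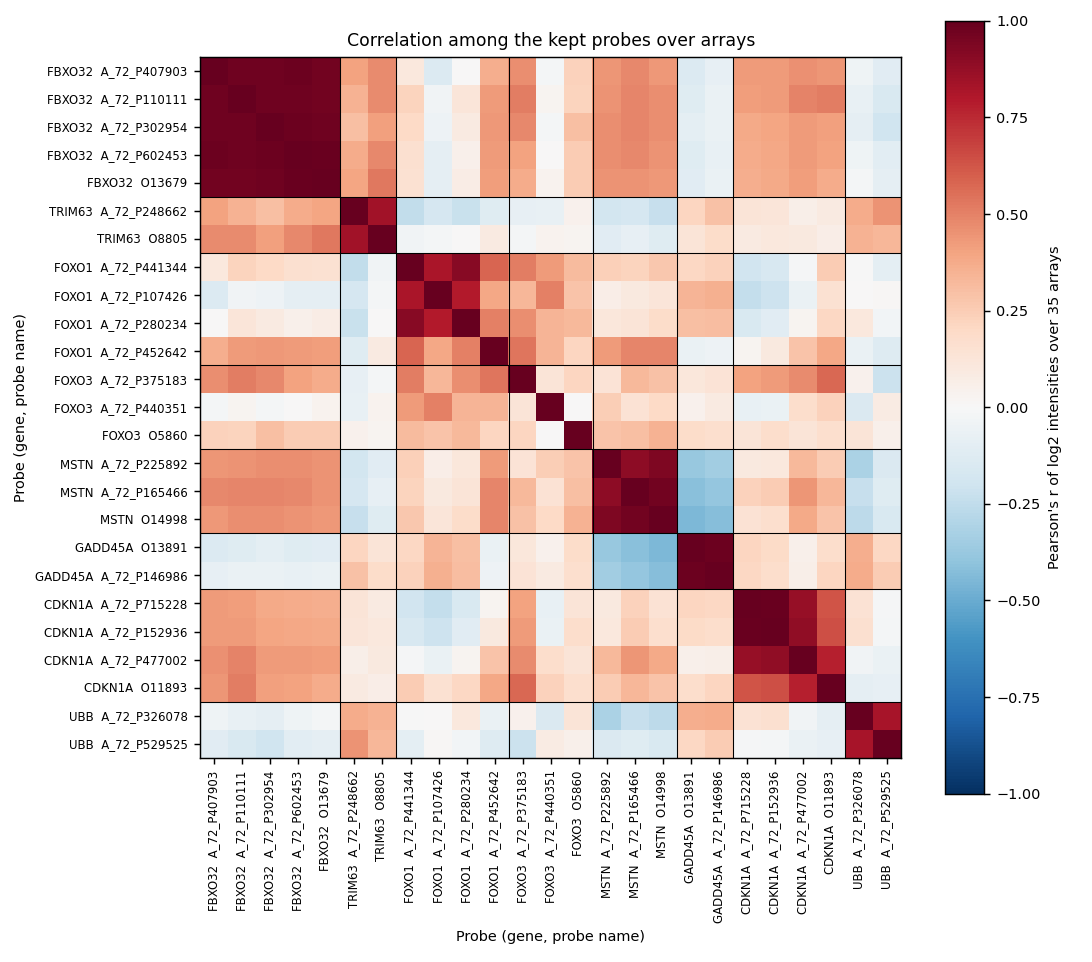
Pearson's r between the 25 tested probes over 35 arrays, with lines between genes. Probes of FBXO32 (r of 0.965 and above), GADD45A (0.980) and MSTN (0.898 and above) form solid blocks, while the 3 FOXO3 probes (0.218 and below) form none.

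Given as a description over the 35 arrays, which share normalisation and groups, FBXO32 and TRIM63 correlated at r = 0.398, and at 0.336 after the group means were subtracted. FBXO32 correlated with the brightest FOXO3 probe at r = 0.465 (0.572 after subtraction) and FOXO1 with that FOXO3 probe at 0.509 (0.595 after subtraction). The genes most like each member among 9669 others, by Pearson's r over the 35 arrays, were these. For FBXO32 they were DDIT4L (0.677), RNF216 (0.674) and TAF1 (0.666), and for TRIM63 CCL27 (0.636) and ARID5B (0.63). For FOXO1 they were SYN1 (0.828), BCKDHA (0.782), which encodes a subunit of the enzyme that breaks down branched-chain keto acids, and CAMK2G (0.773), a calcium-dependent kinase. SYN1, BCKDHA and CAMK2G were all lower in HS pigs, by limma differences of -0.47, -0.34 and -0.37 (adjusted p of 0.00555, 0.0112 and 0.0125). They were picked for following FOXO1 over the same arrays, with the temperature difference left in, so these values are no separate evidence.

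For MSTN the closest genes were ZNF639 (0.814), ZC3H6 (0.814) and MINDY1 (0.806), and for FOXO3 RAB11FIP2 (0.770), TAF1 (0.754) and BTBD7 (0.751). For GADD45A they were BCL3 (0.772), a co-regulator of NF-kappaB, HSPA6 (0.718), a heat-inducible chaperone, and LONRF3 (0.709). For CDKN1A they were ZNF608 (0.759), SPRY2 (0.753), an inhibitor of growth-factor signalling, and CDH1 (0.721). For UBB they were ID4 (0.733), FAM89A (0.727) and ABTB2 (0.71). After the group means were subtracted, the 3 closest genes were the same for CDKN1A. For GADD45A (BCL3 and HSPA6) and UBB (ID4 and ABTB2) 2 of 3 stayed, and for FOXO1 (SYN1) and MSTN (ZC3H6) 1 of 3. For FBXO32, TRIM63 and FOXO3 none stayed: the closest genes were then ANKZF1, COX6B and C14H10ORF53 for FBXO32, HNRNPH2, LAP3 and ABT1 for TRIM63, and CUL4A, BMPR2 and ZBTB10 for FOXO3.

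Other genes of the pathway were followed in 6 lists, and counts are by the brightest tested probe of each gene, to be read against the 18.2% of all genes by symbol. Among other ligases and deubiquitinases of muscle, 14 of 17 genes were tested, and 2 fell and 0 rose. FBXO31 fell by 0.29 (SE 0.09, limma adjusted p = 0.019) and STUB1, a chaperone-linked ligase, by 0.22 (SE 0.07, limma adjusted p = 0.0214). ZFAND5 did not pass on its brightest probe (-0.20, limma adjusted p = 0.117), but 7 of its 17 probes passed, all lower in HS pigs. The median of the list was -0.12, and 12 of 14 differences were negative. Among 13 ubiquitin genes and conjugating enzymes, RPS27A, which encodes ubiquitin fused to a ribosomal protein, rose by 0.18. The conjugating enzymes UBE2B and UBE2D1 fell by 0.37 and 0.38, and the median was -0.06. Of 2 UBE2B probes tested, 1 passed.

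Among 12 of 18 autophagy genes tested, 2 rose and 1 fell, with a median of -0.01. GABARAP, which coats the autophagosome, rose by 0.21 (SE 0.06) and BNIP3L, a receptor for mitochondria, by 0.23 (SE 0.07), with 2 of 6 BNIP3L probes passing. ULK1, the kinase that starts autophagy, fell by 0.54 (SE 0.14, limma adjusted p = 0.00801), and all 3 of its probes passed. In the insulin, AKT and FOXO axis, 16 of 18 genes were tested, with a median of -0.08. CITED2, a transcriptional co-regulator, rose by 0.28 (SE 0.10) on its brightest probe, while 1 of its 6 probes passed and 1 had the opposite sign. PDPK1, the kinase that activates AKT, fell by 0.13 (SE 0.04).

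The list of myostatin and activin signalling held 18 tested genes of 19, of which 3 rose and 2 fell, with a median of -0.11. WFIKKN2, a secreted protein that binds and blocks myostatin and GDF11, fell by 0.83 (SE 0.15), and INHBB, an activin subunit, by 0.27 (SE 0.07). SMAD2, which carries the signal of activin receptors to the nucleus, rose by 0.38 (SE 0.07) on 1 of 2 probes, and FSTL1, a secreted follistatin-like protein, by 0.53 (SE 0.10). GDF11, the closest relative of myostatin, rose by 0.21 (SE 0.07) on its brightest probe but 2 of its 4 probes had the opposite sign. Of the p53 and growth-arrest list, 15 of 17 genes were tested, 3 rose and 0 fell, and the median was -0.03. CHRNA1, a subunit of the acetylcholine receptor, rose by 0.88 (SE 0.20), MYOG, the myogenic factor myogenin, by 0.31 (SE 0.09), and BTG1, an antiproliferative gene, by 0.30 (SE 0.09).

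**Figure D4:**
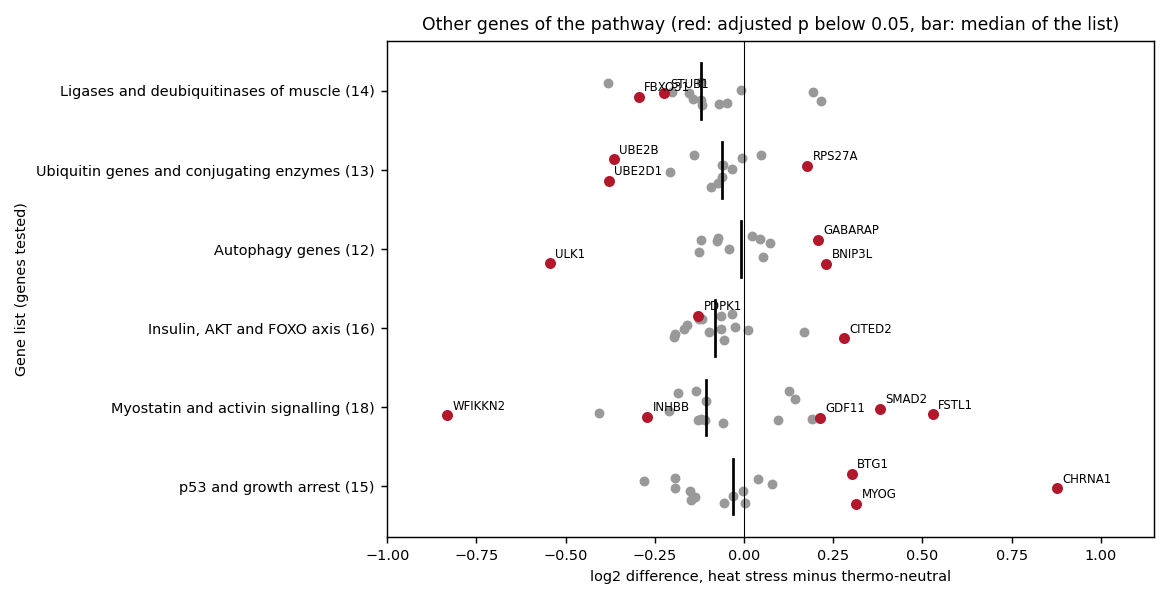
HS minus TN log2 difference of each tested gene (points) of 6 pathway lists on its brightest probe, with red for an adjusted p below 0.05 and a bar at the median of the list. Medians lie between -0.12 and -0.01, and the differences that passed run from -0.83 (WFIKKN2) to 0.88 (CHRNA1).

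Some markers of other cells differed with temperature, and the share of each list that passed is to be read against the 18.2% of all genes by symbol. In the leukocyte list 2 of 11 tested markers (AIF1 and CSF1R) rose and 0 fell. Of the 11 differences, 10 were positive, and the median was 0.70, against -0.02 over all genes by symbol. PTPRC did not pass on its brightest probe, but 2 of its 3 probes passed, both higher in HS pigs. In this list 9 of 11 markers were well above background on every array. The mean over the list ran from 7.82 to 10.34 in TN arrays and from 8.84 to 10.70 in HS arrays. In the connective tissue list 3 of 9 rose, 8 of 9 differences were positive, and the median was 0.33. SPARC, 1 of the markers that rose, passed on 1 of 8 probes. POSTN did not pass on its brightest probe, but 4 of its 8 probes passed, all higher in HS pigs. The mean over this list ran from 11.55 to 13.17 in TN arrays and from 12.58 to 13.55 in HS arrays. In the fibre list 2 of 9 fell (MYH2 and PYGM), with list means of 18.35 to 18.65 in TN and 18.03 to 18.48 in HS arrays. MYH2 passed on 1 of 6 probes. TNNT3 and MYOZ1 did not pass on their brightest probe, but 3 of 5 TNNT3 probes and 2 of 4 MYOZ1 probes passed, all lower in HS pigs. In the endothelium list 1 of 5 fell (VWF, on 1 of 2 probes), in the red blood cell list 1 of 3 (HBB) and in the satellite cell list 1 of 2 (PAX7). Of the adipocyte markers 0 of 5 passed. The part of these cells in the FOXO1 difference and in the pathway lists was not tested. Between breeds, COL3A1, PECAM1 and KDR were lower in Creole than in Large White pigs (limma differences of -0.43, -0.40 and -0.96), and their part in the FBXO32 difference was not tested.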

How the data were processed

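Labelled RNA of 35 pigs was hybridised to 1-colour Agilent arrays on 5 slides, 4 of 8 arrays holding 4 TN and 4 HS arrays each. The deposited scanner files (Agilent Feature Extraction 10.10.1.1, per the submitters' processing notes) gave the median pixel intensity of each spot, a processed signal and flags. A deposited table of log2 values made by the authors was used as an alternative: every column correlated most strongly with the array of the same animal, and the column medians were 8.09. Here, median intensities of the deposited files were quantile-normalised and log2-transformed. Flagged outlier spots (105 in all) were left out, and 0 spots were saturated. The 41517 probes kept entered linear models (limma 3.58.1, R 4.3.3) with additive terms for breed and temperature, or a mean per group for comparisons within a breed, at a fixed temperature and for the interaction. P-values were Benjamini-Hochberg adjusted over all kept probes, with a threshold of 0.05. Pen, slaughter day and parentage are random terms of the authors' model that the labels do not give. Littermates and pigs that shared a pen or a slaughter day were therefore taken as independent. The p-values for temperature and for breed may thus be too small. The probe fit was tested on simulated data: 97.5% of 200 probes changed by 1 on the log2 scale were recovered, with 7 false calls, among 41517 probes. That change is larger than the HS minus TN difference of any member gene, and recovery of smaller changes was not tested.

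The gene names were those of the array files, and 8 of 26 member probes matched a reference symbol by accession and 0 matched another symbol. Each gene is named by its brightest kept probe. From each pathway list, up to 4 genes that passed with the largest change are named, and for each member the 3 genes of highest correlation, of which 1 is not reported here. GDF11 and ZFAND5, outside this rule, were named after their values were seen. The members, the lists and the markers were chosen with earlier results of these data known, and the comparisons of breeds at a fixed temperature were added after the data were seen. Replicate numbers only follow the order of the samples. Promoter, protein and genome sequences were not used here, and no genome build is named in the sources used here, so no coordinates are given. The number of arrays limits the precision of each value.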

Additional observations from a re-analysis of the deposited data

Results flagged for a closer look

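In groups of 5 or 6 arrays, the gap between the most extreme array and its nearest neighbour was compared with the range of the group (Dixon's ratio). Of 48 tests, chance alone gives about 2.4 flags, since 1 in 20 groups is flagged by chance, and 5 were found. FBXO32 in Creole TN replicate 5 was the highest of its group, at 13.95 against 13.51 for the next array (ratio 0.655). FOXO3 in Large White TN replicate 1 was the highest, at 12.64 against 12.02 (ratio 0.837). MSTN in Large White TN replicate 5 was the highest, at 8.56 against 8.13 (ratio 0.667). GADD45A in Creole HS replicate 2 was the highest, at 9.82 against 9.32 (ratio 0.701). CDKN1A in Large White TN replicate 3 was the lowest, at 14.62 against 15.57 (ratio 0.68).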

How the results depend on the processing

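The counts of the 8 genes that passed and the HS minus TN and Creole minus Large White differences of these genes were recomputed under 13 planned settings, with 2 more for breed (TN alone and HS alone), and without each of the 35 arrays in turn, keeping the normalised values and the kept probes. The pathway lists, cell markers and correlations were not. Of the 8 genes, the number that passed in HS minus TN was 1. It was 0 with median scaling and with array brightness as a covariate, 2 with spike-in scaling (FOXO3 and CDKN1A, not FOXO1) and 2 with array weights (FOXO1 and CDKN1A), and it ran from 1 to 2 without single arrays. The number in Creole minus Large White was 1. It was 2 with median scaling (FBXO32 and FOXO1), 0 with no filter, with slide as a fixed block, at TN alone and at HS alone, and 0 to 1 without single arrays. In F1 minus Large White it was 0, and 2 with array weights. Within Creole pigs it ran from 0 to 1 without single arrays, since FOXO1 passed without Creole HS replicate 2. The sign of TRIM63 in HS minus TN was not stable: 0.02 became -0.0804 with 75th percentile scaling, -0.0135 with median scaling, -0.0285 for the mean of its probes, -0.00114 with slide as a fixed block and -0.0481 with the brightness covariate, and it ran from -0.0364 to 0.0719 without single arrays. TRIM63 in Creole minus Large White turned to -0.154 at HS alone. With spike-in scaling MSTN, GADD45A and UBB turned to 0.00365, 0.0643 and 0.00431, UBB turned to 0.0121 with array weights, and FOXO3 to -0.0798 for the mean of its probes. The cause was not tested. The signs of FBXO32, FOXO1 and CDKN1A were the same under all settings tried for these 2 comparisons. The median HS minus TN difference of all probes was -0.02, and -0.06, -0.003 and 0.07 with 75th percentile, median and spike-in scaling, and of the probes that passed 48.2%, 37.5%, 56.7% and 86.6% were higher in HS pigs. No paired analysis was possible because the replicate numbers only follow the order of the samples and the labels tie no animals across groups. Dim probes have the smallest margin over background, and all 8 brightest probes were well above it on every array.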
